A study of Mus musculus with 6 samples.

Results

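Genes of the unfolded protein response and of the integrated stress response were examined in LSK cells of mice in which Srf, the gene of the transcription factor SRF, was targeted for deletion. The set holds 10 genes, Herpud1, Xbp1, Hspa5, Dnajb9, Atf4, Atf6, Ddit3, Ddit4, Asns and Trib3, taken by their place in these pathways, with no measured value in the rule. The choice was nevertheless made with earlier results of these data known. Every probe set whose platform annotation gave one of these genes and no other was used, which came to 23 of the 34945 probe sets that named a single gene. At 1 probe set per gene, the brightest, the set is 10 of 18193 genes.

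LSK cells are the lineage-negative, Sca1-positive, c-Kit-positive fraction of bone marrow, which contains hematopoietic stem cells and early progenitors. Control cells came from Srf+/+;Mx1-Cre mice and SRF-null cells from Srf flx/flx;Mx1-Cre mice, both of the C57BL/6 strain. Mx1-Cre is driven by an interferon-inducible promoter, so mice of both genotypes carried Cre and both were given pIpC, a synthetic double-stranded RNA, from 6 weeks of age (3 doses of 200 µg, 2 days apart). Cells were sorted from pooled animals 35 days after the last dose, and there are 3 arrays per genotype. How many animals made up a pool is not stated in the labels, nor is it said that the arrays of a genotype came from separate pools. The p-values therefore measure the spread among these arrays, which may be technical. The stem and progenitor genes Kit, Cd34 and Flt3 were bright on all 6 arrays, with normalized log2 signals of 14.81 to 15.44, 16.72 to 16.93 and 15.10 to 15.68. No probe set names Ly6a, the gene of Sca1, alone. Srf itself was at 13.03 ± 0.02 in control and 12.60 ± 0.19 in SRF-null cells (mean ± SD, n = 3) on its brighter probe set, with no overlap (adjusted p = 0.957). On the dimmer one the difference was 0.10 (95% interval -0.74 to 0.95). The labels do not say whether either probe set falls in the deleted exons.

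The unfolded protein response is the reaction of a cell to misfolded protein in the endoplasmic reticulum (ER). The sensors IRE1, PERK and ATF6 in the ER membrane start it: IRE1 splices the Xbp1 mRNA so that it encodes an active transcription factor, ATF6 is cut free to enter the nucleus, and PERK phosphorylates the translation factor eIF2alpha. The last step is shared with kinases that sense amino acid shortage, heme shortage and double-stranded RNA, and it slows translation in general while favouring translation of Atf4; this shared arm is the integrated stress response. XBP1 and ATF6 drive ER chaperone and degradation genes through the ER stress element, whereas ATF4 drives amino acid and stress genes through the C/EBP-ATF response element. In hematopoietic stem cells, which make protein slowly, these pathways are known to influence survival after stress.

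The promoters of 4 of the genes hold DNA elements linked to these arms, and they are printed here because the genes below are grouped by these arms. That grouping is from general knowledge and not from the matches, since Herpud1 held elements of both kinds. Sequences are from RefSeq (GRCm38.p6), which gave a window of 250 bases before to 50 bases after the transcription start for 9 of the 10 genes. Capitals mark an exact match to a searched motif, and positions are counted from the start, with 0 as its first base. The motifs, searched on both strands, were the ER stress element ERSE (CCAAT, then 9 bases of any kind, then CCACG), its variant ERSE-II (ATTGG, then 1 base of any kind, then CCACG), the C/EBP-ATF response element CARE (TGATGNAA), the XBP1 site UPRE in its core form (TGACGTGG) and the CArG box, the element bound by SRF. The first 2 motifs both end in the ERSE core (CCACG) and so overlap it.
Herpud1, 150 bases before the start, chr8:94386279-94386428, plus strand: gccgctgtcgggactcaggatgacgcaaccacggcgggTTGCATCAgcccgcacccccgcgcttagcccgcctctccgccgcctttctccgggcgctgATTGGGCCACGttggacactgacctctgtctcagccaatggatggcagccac
Herpud1, 30 bases after the start, chr8:94386449-94386478, plus strand: ccctggcacggggcgcCCATAAAAGGtacc
Hspa5, 150 bases before the start, chr2:34771940-34772089, plus strand: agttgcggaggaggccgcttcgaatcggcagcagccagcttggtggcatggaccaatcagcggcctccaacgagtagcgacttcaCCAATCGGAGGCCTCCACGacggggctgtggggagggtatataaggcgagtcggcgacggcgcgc
Asns, 80 bases before the start, chr6:7693210-7693289, minus strand: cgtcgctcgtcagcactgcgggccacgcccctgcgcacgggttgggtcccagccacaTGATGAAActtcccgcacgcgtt
Trib3, 30 bases after the start, chr2:152344028-152344057, minus strand: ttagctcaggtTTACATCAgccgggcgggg

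In Herpud1 the capitals mark a CARE on the reverse strand at -112, an ERSE-II at -52 and, in the second stretch, a CArG box at 36. Hspa5 holds an ERSE at -65, Asns a CARE at -23 and Trib3 a CARE on the reverse strand at 14. The printed stretches after the start run from position 20 to 49 in Herpud1 and from 3 to 32 in Trib3. Among all 32851 promoter windows of this length, 0.119% held an ERSE, 0.037% an ERSE-II, 3.97% a CARE, 0.676% a UPRE core and 1.63% a CArG box. The short ERSE core is common, at 32.8% of windows, and was also found in Asns at -58, in Herpud1 at -122, apart from its ERSE-II, and in Dnajb9, Atf4 and Ddit4. These are matches of letters and not measured binding sites, and the windows of Xbp1 and Ddit3 held none of these letters.

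**Figure D1:**
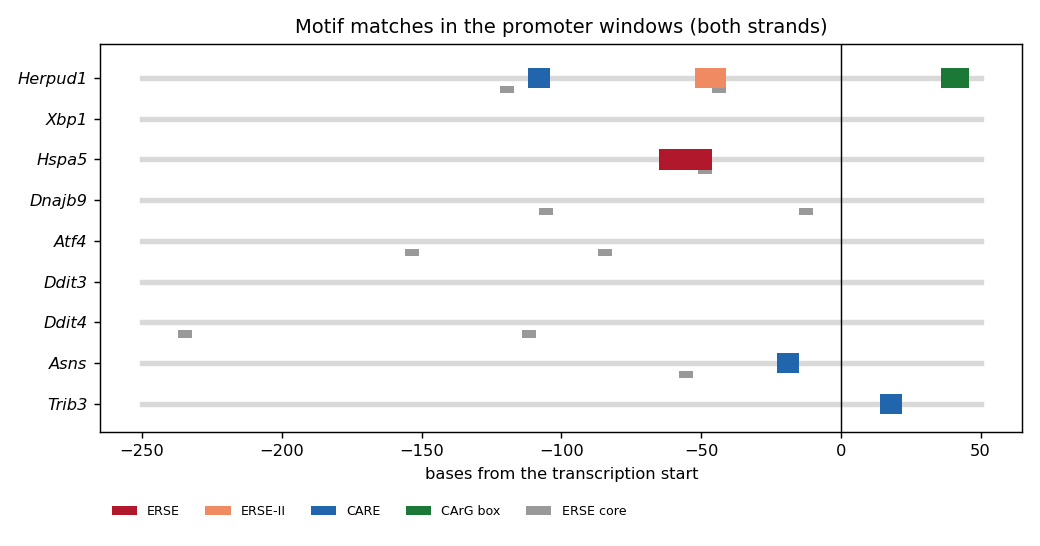
Position of each motif match in the promoter windows of the 9 genes that had one, in bases from the transcription start (vertical line); colours give the motif and the lower small bars the ERSE core. The ERSE and ERSE-II matches lie at -65 in Hspa5 and -52 in Herpud1, and CARE matches are seen in Herpud1, Asns and Trib3.

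Of the 10 genes, 9 had a mean below control in SRF-null cells and 1, Atf6, a mean above it. The median difference (SRF-null minus control) over the 10 genes was -0.26 on the log2 scale, where the median over all genes was -0.01 and 51.4% of all genes lay below control. By limma 0 of the 10 passed an adjusted p of 0.05, and neither did any of the 18193 genes (0.00%). At an unadjusted p under 0.05 the count was 2 of 10, both below control (Herpud1 and Xbp1), against 2.83% of all genes in that direction. That count was 1 without control replicate 2 and 0 without control replicate 3, without SRF-null replicate 1 or without SRF-null replicate 2. It also moved with the processing, to 0 with median centring, to 1 with an offset of 1 or the mean of all probe sets, and to 4 with an offset of 64 or a trended and robust prior. The groups were apart, with all SRF-null arrays below all control arrays, for 3 of 10 genes, against 5.45% of all genes. Values below are normalized log2 signals on an offset scale (16 was added to each intensity), listed for arrays 1, 2 and 3, and differences carry the moderated standard error (SE) and 95% interval from limma. A bulk measurement cannot tell fewer cells that express a gene from less RNA in each cell.

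Xbp1 encodes the transcription factor of the IRE1 arm and had the largest difference of the 10 genes. Control arrays were at 14.63, 15.09 and 15.30 and SRF-null arrays at 13.95, 13.88 and 14.83. SRF-null arrays 1 and 2 lay below every control array, while SRF-null array 3 lay within the control range. The difference was -0.79 (SE 0.31, interval -1.54 to -0.03, 1.73-fold), with an adjusted p of 0.858. All 4 Xbp1 probe sets gave a difference of like size, -0.73 to -0.89, and each was below control within every pair of equal array number. The files do not say which probe sets, if any, separate the spliced from the unspliced mRNA.

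Atf6 encodes the membrane-bound sensor and factor of its own arm, and it was the 1 gene above control. Control arrays were at 12.31, 12.79 and 12.88 and SRF-null arrays at 12.85, 12.75 and 12.97. The groups overlapped, and control array 1 was the low value. The difference was 0.19 (SE 0.18, interval -0.25 to 0.64, adjusted p = 0.965), so a change of this size was not detectable. The other Atf6 probe sets differed by 0.29 and 0.068.

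Herpud1, Hspa5 and Dnajb9 are induced by these factors and act in the ER. Herpud1 encodes a membrane protein of ER-associated degradation. Its control arrays were at 14.32, 14.31 and 14.72 and its SRF-null arrays at 13.88, 13.95 and 14.15. Every SRF-null array lay below every control array on this probe set, and the difference was -0.46 (SE 0.16, interval -0.85 to -0.06, 1.37-fold, adjusted p = 0.820). The second Herpud1 probe set differed by -0.39 with overlapping groups (13.05, 13.36 and 13.72 against 12.79, 12.94 and 13.23), because SRF-null array 3 exceeded control array 1.

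Hspa5 encodes BiP, the main ER chaperone, which also holds the sensors inactive. It was at 16.14, 16.47 and 16.64 on control and at 16.07, 15.96 and 16.47 on SRF-null arrays. Only SRF-null arrays 1 and 2 lay below the lowest control value on this probe set, by a small margin for array 1, and the difference of -0.25 (SE 0.20, interval -0.74 to 0.23) was near its standard error. The other probe sets differed by -0.18 and -0.019, the last being dim, with deposited intensities of 89.2 to 220.1. Dnajb9 encodes a cochaperone of BiP that restrains IRE1 and has 1 probe set. Its values were 14.67, 14.90 and 14.78 in control and 14.47, 14.60 and 14.48 in SRF-null cells, so the groups did not overlap. The difference was small, -0.26 (SE 0.12, interval -0.56 to 0.03, 1.20-fold, adjusted p = 0.874).

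Atf4 encodes the factor at the centre of the integrated stress response, which is governed mainly at the level of translation. Its brightest probe set was at 15.96, 16.11 and 16.09 in control and 15.84, 15.79 and 15.85 in SRF-null cells. All SRF-null values lay below all control values, by a difference of -0.23 (SE 0.11, interval -0.50 to 0.04, 1.17-fold, adjusted p = 0.887). The next Atf4 probe set went the other way, at 0.082 (SE 0.15), with control array 1 low at 13.98 and the other 5 arrays at 14.27 to 14.41. The suffix of that probe set (x_at) marks probes that may match further sequences, as it does for the brightest probe sets of Asns and Trib3. The third was near the bottom of the scale at 4.77 to 5.54. Atf4 was the 1 gene of the 10 whose probe sets disagreed in sign.

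Ddit3 encodes CHOP, a factor downstream of ATF4 that is linked to cell death, and Ddit4 encodes REDD1, an inhibitor of mTORC1 that ATF4 and other stress factors induce. Ddit3 was at 13.33, 12.70 and 13.20 in control and at 12.90, 12.99 and 12.88 in SRF-null cells. The SRF-null arrays lay close together, with an SD of 0.05, inside a wider control range (SD 0.34), and the difference was -0.15 (SE 0.19, interval -0.61 to 0.31). Ddit4 was at 16.43, 16.07 and 16.40 in control and at 16.05, 16.32 and 15.92 in SRF-null cells, a difference of -0.21 (SE 0.17, interval -0.62 to 0.20). On these probe sets of both genes control array 2 was the lowest control and SRF-null array 2 the highest SRF-null array, so the number pairs differed in sign: 2 pairs were below control and 1 above. The second, dimmer Ddit3 probe set was at 8.71, 8.27 and 8.44 in control and 8.34, 7.68 and 8.63 in SRF-null cells. It differed by -0.25 (SE 0.27). There SRF-null array 2 was the lowest SRF-null array, and pair 3 was the pair above control.

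Asns encodes asparagine synthetase and Trib3 a pseudokinase that binds ATF4 and limits its activity; both are ATF4 targets. Asns was at 14.46, 15.05 and 14.48 in control and at 13.71, 14.59 and 14.78 in SRF-null cells. The groups overlapped, with SRF-null array 1 far below the rest, and the difference was -0.31 (SE 0.33, interval -1.10 to 0.49). Without SRF-null replicate 1 it was 0.022. The second Asns probe set differed by -0.48 (SE 0.34). Trib3 had the widest spread of the 10 genes, at 11.37, 11.78 and 10.69 in control and 10.89, 11.81 and 9.23 in SRF-null cells. Its difference of -0.64 (SE 0.67, interval -2.27 to 0.99) rested on SRF-null array 3 and was 0.070 without SRF-null replicate 3. The dimmer Trib3 probe set differed by -0.89 (SE 0.59) and was below control in all 3 number pairs.

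**Figure D2:**
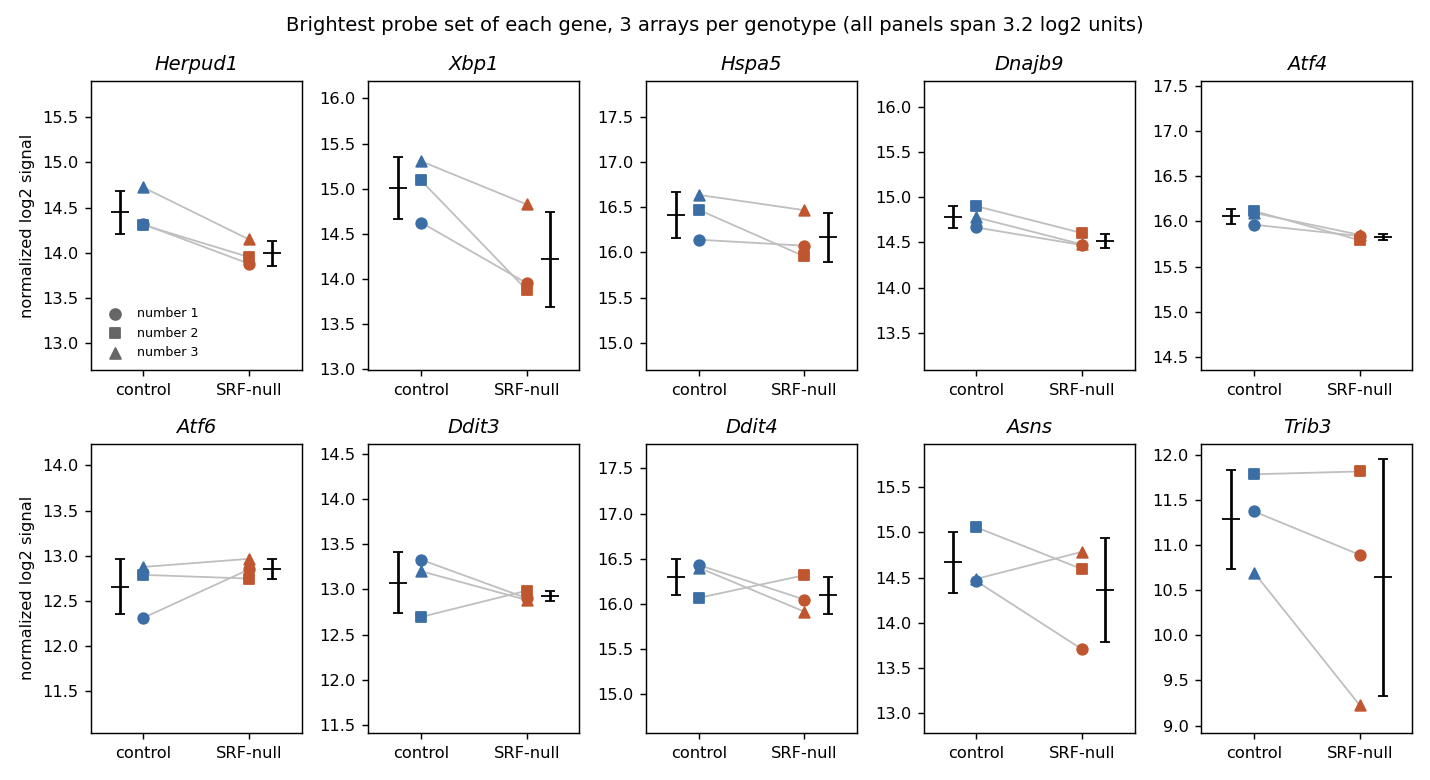
Normalized log2 signal of the brightest probe set of each gene on 3 control (blue) and 3 SRF-null (orange) arrays; grey lines join arrays of equal number and black bars give the mean and SD of each group. The groups are apart for Herpud1, Dnajb9 and Atf4, and Trib3 shows the widest spread, down to 9.23 on SRF-null array 3.

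Over all 23 probe sets, 19 had a mean below control and 4 above it, where 50.3% of all probe sets lay below control, and the groups were apart for 3, all with SRF-null below, against 4.84% of all probe sets. The 4 above control were the 3 of Atf6 and 1 of Atf4. In the fit over every probe set 3 of 23 had an unadjusted p under 0.05, all below control, against 2.31% of all probe sets in that direction, and 0 passed after adjustment (0.00% of all). These 3 were 1 probe set of Herpud1 and 2 of Xbp1. Equal array numbers were taken to pair the arrays, a choice made from these same values. With the replicate number as a block, 7 of 23 probe sets had an unadjusted p under 0.05, all below control, against 3.78% of all, and again 0 passed after adjustment. The 7 were both Herpud1 probe sets, all 4 of Xbp1 and the dimmer one of Trib3. At 1 probe set per gene the blocked count was 2 of 10, against 4.23% of all genes below control and 0.00% past the adjustment, with an adjusted p of 0.496 for Xbp1 and 0.516 for Herpud1. Within number pairs, 10 of 23 probe sets were below control in all 3 pairs, against 14.8% of all probe sets. Probe sets of a gene share its transcripts and are not separate observations.

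**Figure D3:**
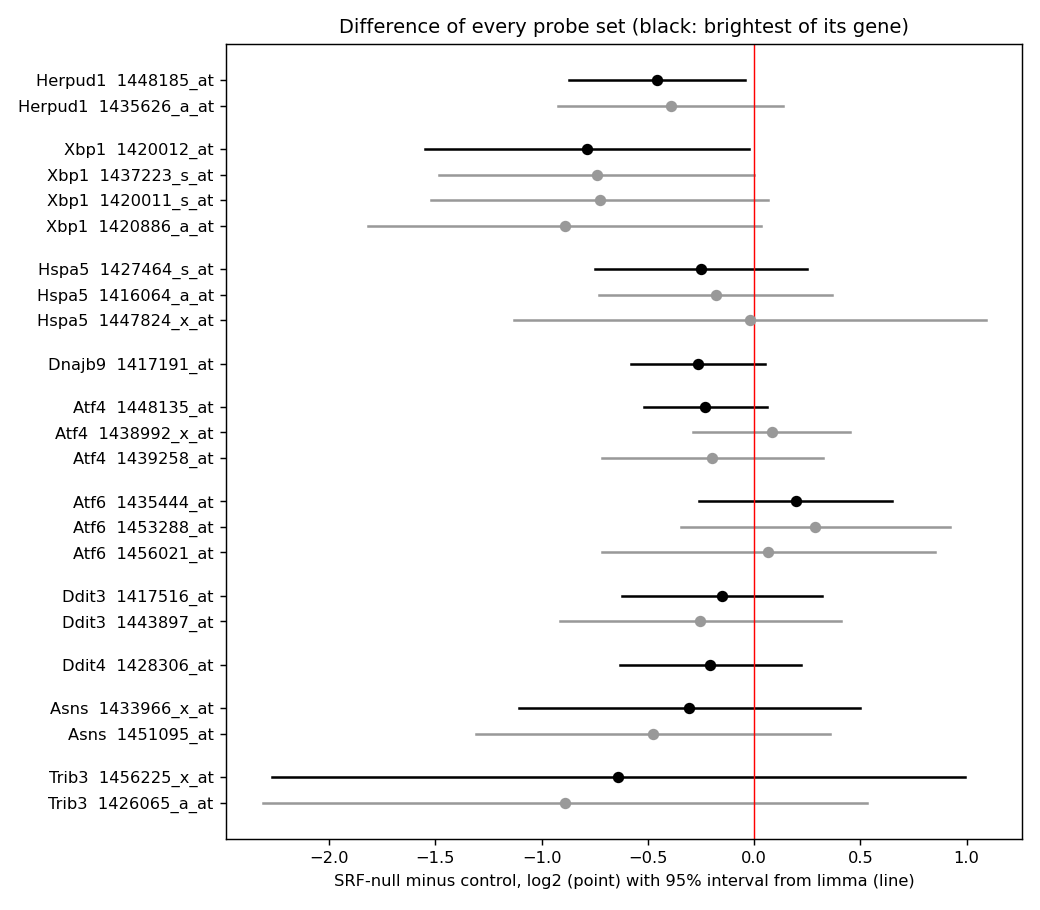
Difference between SRF-null and control means (log2) with its 95% interval from limma for each of the 23 probe sets, the brightest of each gene in black. Of the 23 intervals 3 stay below 0, those of the brightest Herpud1 probe set and of 2 Xbp1 probe sets, with upper bounds near 0 (-0.042 for Herpud1).

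The arrays of one genotype differed among themselves, and not every gene followed the same order of arrays. Xbp1, Hspa5, Herpud1 and Atf6 were highest on control array 3 among controls and on SRF-null array 3 among SRF-null arrays. The other 6 genes did not have this order, and Trib3 and Ddit4 were lowest of all on SRF-null array 3. As the mean deviation of the 10 genes from their own 6-array means, control arrays were at 0.05, 0.21 and 0.20 and SRF-null arrays at -0.25, -0.05 and -0.16. On control arrays 7, 8 and 8 of the 10 genes lay above their own mean, and on SRF-null arrays 1, 3 and 4 did. The mean deviation was thus above 0 on each control array and below 0 on each SRF-null array, although 7 of the 10 genes overlapped between groups.

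**Figure D4:**
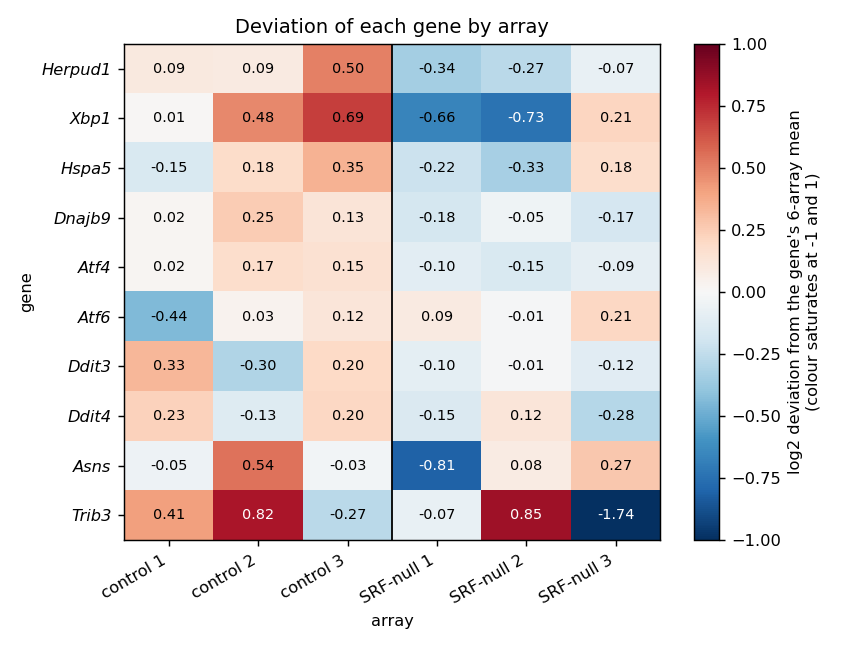
Deviation of each gene (rows) on each array (columns) from that gene's mean over the 6 arrays, in log2 units, with the value printed in each cell. SRF-null array 1 is below the mean for all genes but Atf6, and Trib3 on SRF-null array 3 is the extreme cell at -1.74.

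Further genes of the same pathways were examined as lists written from general knowledge, but with earlier results of these data known. The 10 genes were left out and no list was tested as a set. Among ER stress sensors and their regulators 9 of 11 were below control (median -0.11), among ER chaperones and folding enzymes 19 of 24 (median -0.13), and among genes of ER-associated degradation and ER export 18 of 28 (median -0.06). Of eIF2alpha kinases, phosphatases and regulators 11 of 14 were below control (median -0.16). In the ATF4-dependent lists these counts were 16 of 24 for transcription factors and stress genes (median -0.15), 18 of 20 for amino acid synthesis and transport (median -0.22) and 10 of 12 for aminoacyl-tRNA synthetases (median -0.24). The partners of REDD1 around mTORC1 had 3 of 10 below control and a median of 0.03, a count that was 5 of 10 with median centring and 7 of 10 without SRF-null replicate 2. The count for the sensors was 5 of 11 when all probe sets of a gene were averaged. The share of all genes below control was 51.4% in the main fit and 57.1% with median centring. It was 54.5% without SRF-null replicate 2 and 51.1% with probe sets averaged. In these 8 lists 0 genes passed the limma adjustment. At an unadjusted p under 0.05, 3 genes of degradation and export, 3 ATF4-dependent stress genes and 1 amino acid gene were below control, and 1 ATF4-dependent stress gene was above it; the background is 2.83% of all genes below and 2.91% above.

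The ATF4-dependent stress genes held the extremes in both directions. Nupr1, a small chromatin protein induced by stress, was at 12.81, 13.39 and 14.10 in control and 11.99, 11.05 and 11.68 in SRF-null cells. The groups were apart by a difference of -1.86 (SE 0.39, 3 of 3 arrays below all controls, adjusted p = 0.557). Ndrg1, which hypoxia and other stresses also induce, was at 14.82, 14.19 and 15.01 in control and 16.39, 16.46 and 16.15 in SRF-null cells. It was the opposite case, above control on 3 of 3 arrays by 1.66 (SE 0.24, adjusted p = 0.467), where 5.14% of all genes had groups apart in that direction. Atf3, a factor induced by ATF4, differed by -0.76 (SE 0.26) but was near the bottom of the scale, at 4.46 to 5.89, where the offset sets much of a difference. Stc2, a secreted stress glycoprotein, was as dim (4.21 to 5.89) and differed by -0.90; it is named after its value was seen, as the third such gene below control.

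Among genes of degradation and export, those with the smallest p were Selenos (-0.43, SE 0.15), which encodes a partner of the retrotranslocation machinery, and the COPII coat genes Sec31a (-0.31, SE 0.11) and Sec24d (-0.57, SE 0.23), which serve export from the ER. The first 2 had groups that were apart. Among chaperone and folding genes they were Txndc5 (-0.55, SE 0.28), Pdia6 (-0.46, SE 0.30) and Creld2 (-0.48, SE 0.36). Among amino acid genes the neutral amino acid transporter gene Slc1a4 differed by -0.83 (SE 0.30), and Slc6a9 by -0.37. Aldh1l2 differed by -0.59 but was near the bottom of the scale (4.09 to 5.62), and its difference ran from -1.47 (offset 1) to -0.23 (offset 64). The synthetase genes Lars, Tars and Iars differed by -0.29, -0.34 and -0.29. Among the eIF2alpha genes Eif2b2 (-0.24, SE 0.11), Nck1 (-0.25, SE 0.15) and Gcn1 (-0.20, SE 0.13) led. The sensor-related genes with the smallest p were Atf6b (-0.51, SE 0.25), Nfyb (0.17, SE 0.11) and Eif2ak3, which encodes PERK (-0.20, SE 0.14). Around mTORC1 they were Ddit4l, the paralogue of Ddit4 (0.80, SE 0.48; dim at 4.45 to 6.37, with 1.37 at an offset of 1 and 0.38 at an offset of 64), Akt1s1 (-0.13) and Sesn3 (-0.16). None of these passed the adjustment.

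**Figure D5:**
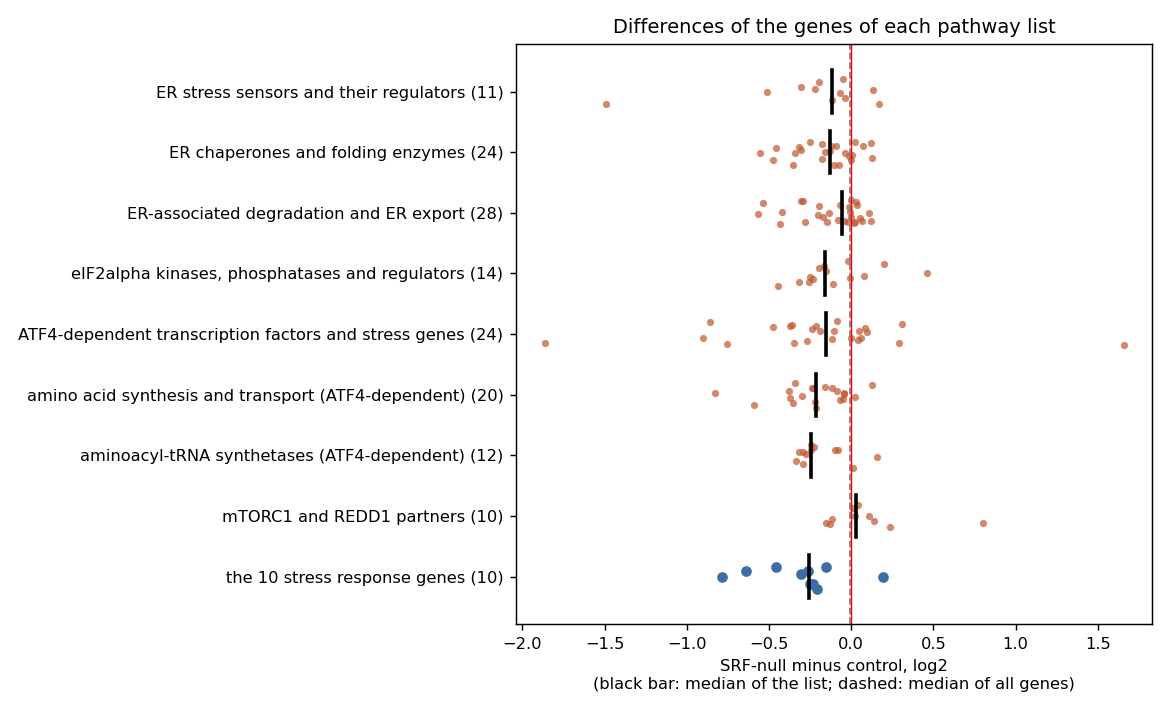
Difference between SRF-null and control means (log2) for each gene of the pathway lists (orange points, number of genes in brackets) and the 10 stress response genes (blue), with the median of each list as a black bar. All medians but that of the mTORC1 list, at 0.03, lie below 0, and Nupr1 and Ndrg1 are the outermost points at -1.86 and 1.66.

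Genes were also counted by promoter motif, with the 10 genes kept in, so that Hspa5 is among those with an ERSE, Herpud1 among those with an ERSE-II, a CARE or a CArG box, and Asns and Trib3 among those with a CARE. Of 20 measured genes with an ERSE 11 were below control (median -0.03), of 9 with an ERSE-II 7 (median -0.07), and of 143 with a UPRE core 85 (median -0.04). Of 468 genes with a CARE 221 were below control (median 0.01), and of 229 with a CArG box 110 (median 0.02). Over all 14452 genes with a promoter window 7448 were below control, with a median of -0.01. At an unadjusted limma p under 0.05, genes below and above control numbered 1 and 0 with an ERSE and 2 and 0 with an ERSE-II. Herpud1 was 1 of these 2. The counts were 4 and 6 with a UPRE core, 11 and 13 with a CARE and 13 and 19 with a CArG box. Over all 14452 genes they were 406 and 412. No motif group was tested.

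The markers of plasma cells, which rely on Xbp1 and a large ER, and of B cells formed 1 list. They summed to an intensity of 88651, 62372 and 172753 on control arrays and 57814, 77820 and 165364 on SRF-null arrays over the 14 of 16 measured (Xbp1 itself left out). This sum was highest on array 3 of both genotypes, as were Xbp1 and Hspa5 within each genotype. Between arrays 1 and 2 it moved opposite to Xbp1 in both genotypes, but it rests mostly on the bright Jchain, Sdc1 and Cd79b. Dimmer markers were mixed. From control array 1 to 2 Pou2af1 (7.68 to 8.28) and Irf4 (8.33 to 8.92) rose with Xbp1, while Ebf1 (7.45 to 6.75) and Vpreb1 (10.41 to 10.03) fell. Of the 14 markers 11 were highest on array 3 of both genotypes. Jchain (14.81, 13.98 and 16.66 in control and 13.33, 14.17 and 16.31 in SRF-null cells) and Mzb1 (8.55, 8.06 and 11.76 and 7.89, 9.35 and 11.65) were among them, while the bright markers Sdc1 (15.19, 14.45 and 14.68 in control) and Cd79b (14.25, 14.22 and 14.19) were highest on control array 1. Pax5 was under an intensity of 16 on all arrays. This order of arrays was not particular to these markers. It was also held by 16 of 24 chaperone genes, 9 of 28 genes of degradation and export and 5 of 12 monocyte and macrophage markers. Of the LSK and stem cell markers 0 of 10 held it. The share of all genes with this order was not counted. Array 3 of the 2 genotypes also shared deviations over all genes (correlation 0.37). In this list 5 of 14 markers were below control, and the part of such cells in the values of Xbp1 and Hspa5 was not tested.

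Monocyte and macrophage markers were above control for 11 of 12, with sums of 41660 to 82040 in control and 79156 to 134088 in SRF-null cells. T and NK cell markers were above control for 10 of 11, with sums of 61224 to 73485 and 86748 to 91909. Most of that sum was Nkg7, at 15.88, 15.77 and 16.01 in control and 16.35, 16.21 and 16.28 in SRF-null cells. The next brightest marker, Thy1, was at 10.51 to 12.72. Cd3d was near the bottom of the scale (4.24 to 5.05), and Cd3g was under an intensity of 16 throughout. Granulocyte markers (6 of 10 above control, 285168 to 471181 and 360191 to 488576) and erythroid markers (5 of 7, 68097 to 80986 and 47520 to 124163) overlapped between genotypes, and Hba-a1 and Alas2 were under an intensity of 16 on all arrays. The LSK and stem cell markers had 7 of 10 below control (439989 to 577066 and 404915 to 528477). Genes of dissociation and heat shock, which handling of cells can induce, had 10 of 16 below control. Their sums were 623723 to 911721 in control and 573794 to 666076 in SRF-null cells, the highest on control array 3. These sums follow the brightest genes, such as Hspa8 (17.70 to 17.85), and hide members that moved in opposite directions. Egr1 (-1.20) and Junb (-0.86) were below control and Btg2 (0.69) above it, each with groups apart. Fos differed by 3.10 (SE 1.69), and none passed the adjustment. The sum is therefore not a gauge of handling alone. The part of these cells or of handling in the stress response genes was not tested.

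By the nearness of their pattern to the mean pattern of the 10 genes over the 6 arrays, the closest of 9086 genes above the median level were Trip6, Vps9d1, Traf7, Prpsap1 and 2610507B11Rik. Their root mean square distance was 0.04 to 0.05 log2 units, against a median of 0.24. Trip6 differed by -0.25, Vps9d1 by -0.35, Traf7 by -0.27, Prpsap1 by -0.23 and 2610507B11Rik by -0.33, and none passed the adjustment. These genes were picked for nearness to that pattern, so their small distances and their means below control follow from the choice.

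The 6 arrays had median intensities of 200.4 to 292.2 and upper quartiles of 5008 to 5312, and 26.0% to 26.9% of probe sets were under an intensity of 16. The excess of 3' over 5' signal on the array's own quality probe sets was 1.18 to 1.45 in control and 0.93 to 1.51 in SRF-null cells for Actb (log2), and 0.97 to 1.20 and 0.67 to 1.16 for Gapdh. SRF-null array 3 was lowest in both.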

How the data were processed

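The authors deposited 1 linear intensity per probe set and array for 45101 probe sets; how these were corrected, summarised and scaled is not stated in the labels. The unit was read from the values. Per the labels' protocols, RNA (30 ng) was amplified before hybridisation to Affymetrix arrays. The 64 Affymetrix control probe sets were left out of tests, and gene names came from the platform annotation. It names 1 gene for 34945 of the other probe sets, several for 932 and none for 9160. The series' design text gives the array type as MOE430A, whereas GEO's platform annotation, used here, is for another array type of the same family; this difference was not resolved.

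Intensities were converted to log2(value + 16) and quantile normalized, since array medians differed by 0.51 (log2), above a limit of 0.1. Fold changes on this scale understate the change of dim genes. Each gene was represented by its brightest probe set (mean of all 6 arrays), and a second fit used every probe set that named 1 gene. The genotypes were compared by limma 3.58.1 under R 4.3.3, through lmFit and a two-sided eBayes test with no covariate. Benjamini-Hochberg adjustment ran over all genes or all such probe sets, with a threshold of 0.05. The fit was tested on simulated data. Precision is limited by having 3 arrays per genotype. Array labels carry numbers 1 to 3 in both genotypes. Over 18193 genes the deviations from the group means correlated at 0.20, 0.13 and 0.37 between equal numbers. Between unequal numbers they correlated at -0.24 to 0.03, so equal numbers were taken as pairs. Deviations within a group cancel, so the equal and unequal correlations are not independent of each other. The pairing was chosen from these same values, so the blocked fit is not separate support. Promoters were searched with Python 3.11.15, and figures drawn with matplotlib 3.10.9.

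The 10 genes and the lists were chosen with earlier results of these data known. Named genes are the 10 genes with all their probe sets, up to 3 genes of smallest p from each pathway list, and the 5 nearest patterns; stem, plasma cell and other markers are named where a result turns on them. In all, 16 alternatives were tried.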

Additional observations from a re-analysis of the deposited data

How the results depend on the processing

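The 9 of 10 genes below control were 8 to 9 under the 16 alternatives, and 8 to 9 when single arrays were left out. The difference ranged from -0.53 to -0.32 for Herpud1, -1.09 to -0.61 for Xbp1, -0.40 to -0.14 for Hspa5, -0.32 to -0.18 for Dnajb9, -0.28 to -0.12 for Atf4, 0.022 to 0.30 for Atf6, -0.34 to -0.024 for Ddit3 and -0.32 to -0.12 for Ddit4, with none past the adjustment. With single arrays left out Asns ranged from -0.52 to 0.022 (reversed without SRF-null replicate 1) and Trib3 from -1.22 to 0.070 (reversed without SRF-null replicate 3). Leaving out both control replicate 2 and SRF-null replicate 1 turned Asns to 0.22. Of the 29 other genes named by rule, Eif2ak3 turned to 0.068 with the mean of all probe sets, and the rest kept their direction. None passed the limma adjustment, and the lowest adjusted p was 0.116, for Ndrg1 with a trended and robust prior. Their sizes moved more, with single arrays left out from -0.94 to -0.25 for Aldh1l2, -0.60 to -0.14 for Slc6a9, -0.82 to -0.23 for Creld2, -0.29 to -0.028 for Sesn3 and 0.45 to 1.27 for Ddit4l. Among the nearest patterns 2610507B11Rik was at -0.045 with the mean of all probe sets. The count of genes past the adjusted threshold was 0 to 1 when single arrays were left out; it was 1 under median centring and also 1 when the prior was trended and robust (Mocs1 in both), and 1 without control replicate 2 (Ccnb1ip1). With the replicate number as a block it was 0, and pairing changed no call. The chaperone list had 13 to 22 of 24 genes below control over the alternatives, the lowest without control replicate 3. With single arrays left out, degradation and export had 14 to 24 of 28, eIF2alpha regulators 9 to 12 of 14 and ATF4-dependent stress genes 15 to 18 of 24. Amino acid genes then had 17 to 19 of 20 and synthetases 9 to 12 of 12. With the mean of all probe sets, degradation and export had 15 of 28 and ATF4-dependent stress genes 14 of 24. In the mTORC1 list the count was 3 to 7 of 10. The causes were not tested. The 3 arrays per group limit what could be detected, and dim probe sets depend on the offset.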
